A study of Mus musculus with 6 samples.

Results

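Kidney stromal and nephron lineage factors are the transcription factors that mark and build the stromal and nephron compartments of the developing kidney. The 9 genes described here, Foxd1, Tcf21, Tbx18, Wt1, Pax2, Pax8, Osr1, Six2 and Meis1, were picked by symbol from the 34745 genes of the deposited table. No measured value entered that rule, but the choice was made with earlier results of these data known. RNA was sequenced from wild-type (WT) primary mouse renal fibroblasts, matrix-producing cells grown out of enzyme-digested kidney in fibroblast medium, so other kidney cells that attach to plastic could be carried along. In the group called alone, 3 libraries came from fibroblasts with no treatment. In the group called with Th17, 3 libraries came from fibroblasts kept for 24 h beneath a 0.4 µm transwell insert that held induced Th17 cells, the helper T cells that make interleukin-17. The fibroblasts had attached for 6 h first, and only the cells under the insert were collected. The coculture was set up to learn how Th17 cells act on kidney fibroblasts through shared medium. Libraries held between 12050529 and 13209581 counted fragments. Nothing in the labels ties the replicates to separate cultures or mice, and each SD, SE and p therefore measures only the spread between these libraries, which may be technical.

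In the embryonic kidney, Foxd1 marks the cortical stroma, whose descendants include interstitial fibroblasts, pericytes and mesangial cells. Six2 maintains the cap mesenchyme, the progenitors that give rise to the nephron, while Osr1 and Wt1 act earlier in the mesenchyme that feeds both compartments, and Wt1 is later kept on in podocytes. Pax2 and Pax8 belong to the epithelial side, the ureteric bud and the forming nephron, whereas Tcf21, Tbx18 and Meis1 are expressed in stromal and perivascular cells.

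The fibroblast cultures alone held clear levels of 5 of these 9 factors, Tbx18, Osr1, Wt1, Meis1 and Tcf21, and 3 of those were lower and 2 higher with Th17 cells. Of the 5, Tcf21 had the fewest counts, between 21 and 27 in each library alone. Tcf21 was nearly lost, Wt1 fell by more than a factor of 2, Osr1 fell by less, and Tbx18 and Meis1 rose by less than a factor of 2. Foxd1, Pax2 and Pax8 were at or below 3 counts in all 6 libraries, and Six2 was present at a low level that overlapped between the groups. A count of 3, taken here as the floor of detection, corresponded to between 0.223 and 0.254 CPM (the count scaled to a library total adjusted by the trimmed mean of M-values, TMM). Such floors and the counting intervals reflect counting error alone, because the fragments carried no molecular identifiers and may repeat a molecule. In bulk RNA, fewer cells of a type and less RNA per cell cannot be told apart.

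Of the 9 genes, 6 had enough counts to be tested. The test was edgeR's quasi-likelihood F test, adjusted by the Benjamini-Hochberg method over 13088 genes, and the threshold was that of the study, a fold change above 2 together with an adjusted p under 0.05. Past it, 2 of the 6 factors were lower and 0 higher. Among all genes tested, 7.78% were lower and 3.87% higher by this rule. With the adjusted p alone and no limit on fold change, 3 of the 6 were lower (Tcf21, Wt1 and Osr1) and 2 higher (Tbx18 and Meis1), against 20.0% lower, 17.1% higher and 37.1% in either direction among all genes tested. The groups' CPM values did not overlap for these 5 genes, as for 50.4% of all genes tested. The median log2 fold change of the 6 was −0.46, beside 0.00 for all genes tested.

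**Figure D1:**
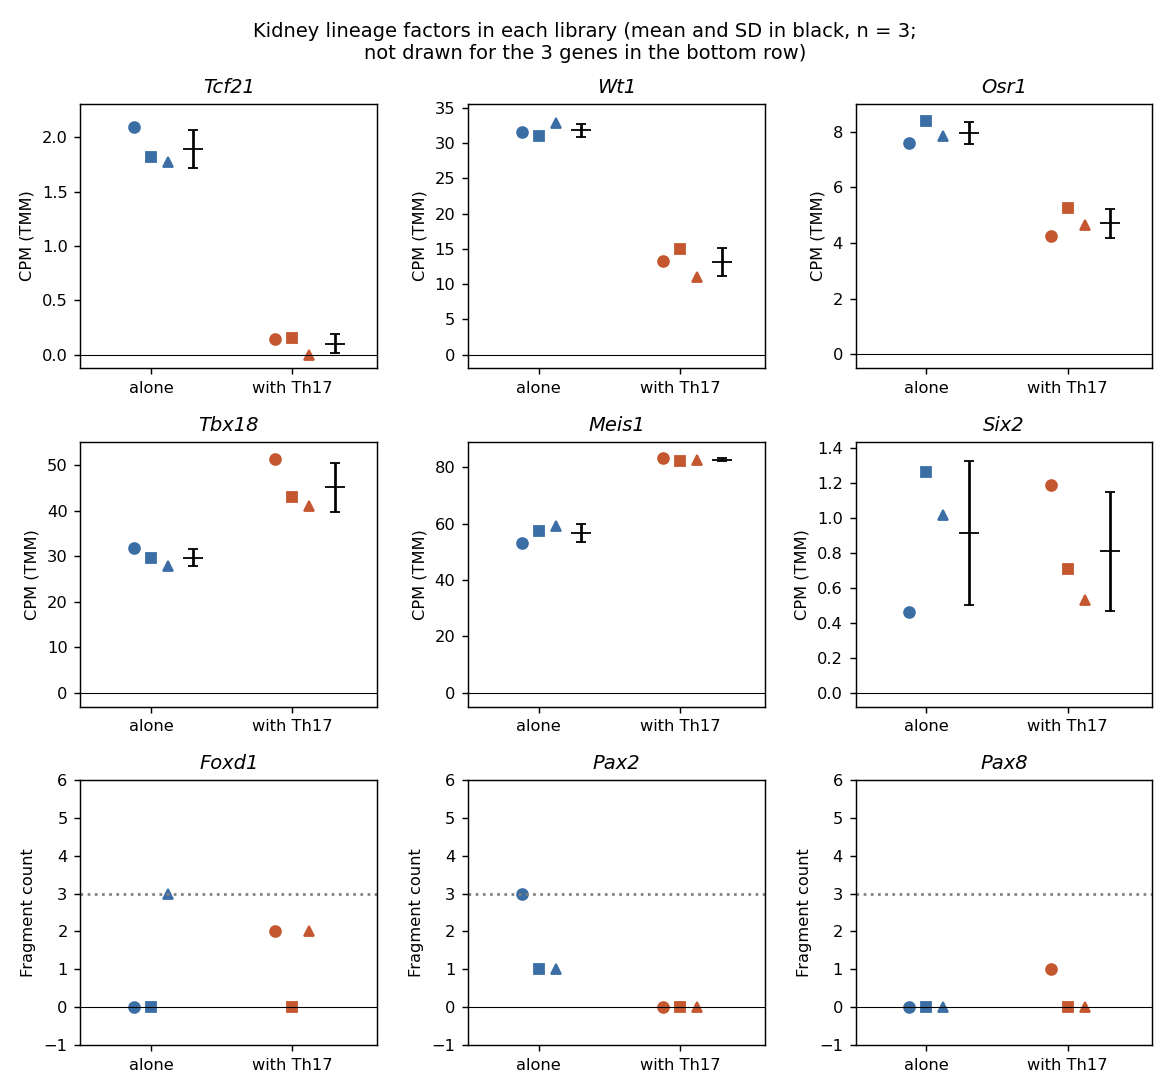
Level of each of the 9 factors in each library, as TMM-scaled CPM on the vertical axis for the 6 tested genes and as the fragment count for Foxd1, Pax2 and Pax8; circles, squares and triangles are replicates 1, 2 and 3, black bars the mean and SD (n = 3), and the dotted line marks 3 counts. Tcf21, Wt1 and Osr1 were lower in each library with Th17 cells than in any library alone, Tbx18 and Meis1 were higher, and Six2 overlapped.

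For 7 of the 9 factors, RefSeq (build GRCm38.p6) gave the bases just upstream of the gene's start. These are printed for Tcf21, Tbx18 and Meis1, the factors with such an entry that passed an adjusted p of 0.05, so that a gene that fell can be read beside those that rose. Each runs 5′ to 3′ on the gene's own strand and stops before the first annotated exon. Capitals mark E-boxes (CANNTG, the core bound by basic helix-loop-helix factors such as Tcf21) and CCAAT boxes on either strand.
Tcf21, chr10:22820175-22820393, minus strand: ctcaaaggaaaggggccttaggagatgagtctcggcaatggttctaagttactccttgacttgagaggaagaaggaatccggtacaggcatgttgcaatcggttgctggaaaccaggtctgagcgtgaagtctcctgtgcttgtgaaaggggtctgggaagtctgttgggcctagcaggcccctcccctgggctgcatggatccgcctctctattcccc
Tbx18, chr9:87731261-87731510, minus strand: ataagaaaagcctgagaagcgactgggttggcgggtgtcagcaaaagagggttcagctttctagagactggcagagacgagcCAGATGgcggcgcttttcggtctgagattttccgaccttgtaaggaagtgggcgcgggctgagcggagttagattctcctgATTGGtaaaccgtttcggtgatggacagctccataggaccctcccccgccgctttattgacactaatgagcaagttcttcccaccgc
Meis1, chr11:19018986-19019219, minus strand: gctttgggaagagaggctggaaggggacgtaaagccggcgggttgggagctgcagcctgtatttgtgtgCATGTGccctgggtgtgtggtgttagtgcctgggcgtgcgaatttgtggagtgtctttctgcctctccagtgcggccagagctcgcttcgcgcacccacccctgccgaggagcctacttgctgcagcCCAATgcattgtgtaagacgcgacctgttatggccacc
The search covered 8 motifs on both strands, and their frequency was taken over 32851 windows of 250 bases upstream of RefSeq starts. The GC box, searched as GGGCGG, was present in 32.7% of windows. The TATA box was searched as TATAAA and was present in 12.4%, and the CCAAT box in 33.9%. The E-box was present in 66.2% of windows, the T-box core, searched as AGGTGT, in 11.8%, and the Meis core, searched as TGACAG, in 15.9%. The site shared by Egr factors and Wt1, searched as GCGNGGGCG, was present in 4.70% and the STAT site, searched as TTCNNNGAA, in 7.02%. None of these 8 was found in the Tcf21 sequence. Tbx18 and Meis1 each held 1 E-box and 1 CCAAT box and none of the other motifs. Motifs, CpG and GC content were counted over the full 250 bases, which for Tcf21 and Meis1 run past the printed bases into the first annotated exon. Over these full windows Tbx18 and Meis1 had 15 and 13 CpG dinucleotides and Tcf21 had 5, where the median window had 6. The GC content was 54.0% for Tbx18, 59.6% for Meis1 and 52.4% for Tcf21, the last being also the median.

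Tcf21, a basic helix-loop-helix factor of interstitial and glomerular mesenchyme, showed the largest change of the 6 tested genes. Tcf21 (ENSMUSG00000045680, chromosome 10, 22817279 to 22820128 on GRCm38, protein-coding) had 27, 23 and 21 counts in the libraries alone and 2, 2 and 0 counts in those with Th17 cells. Each library alone stood well above the floor of 3 counts, and each library with Th17 cells stood below it. Its level fell from 1.90 ± 0.174 to 0.102 ± 0.0884 CPM (mean ± SD, n = 3 per group), with a fitted log2 change of −4.10 ± 0.53 (SE) and an edgeR adjusted p = 0.00032. Pooled over libraries and scaled to library size, 71 against 4 counts gave a level 18.7 times as high in fibroblasts alone, with a 95% counting interval of 6.98 to 70.4. The size of this decrease therefore rests on 4 counts, and the fitted value depends on the prior count. The annotation places Gm10824 on the opposite strand across Tcf21 with no shared exonic bases.

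Wt1, a zinc finger factor of nephron progenitors and podocytes that the mesothelium covering the organs also expresses, was the other factor past the threshold. Wt1 (ENSMUSG00000016458, chromosome 2, 105126529 to 105173616, protein-coding) had 406, 393 and 388 counts alone and 178, 191 and 145 counts with Th17 cells. Every library alone lay far above every library with Th17 cells, among which replicate 3 was the lowest. Its level fell from 31.8 ± 0.911 to 13.1 ± 1.99 CPM (mean ± SD, n = 3 per group), with a fitted log2 change of −1.28 (95% interval −1.55 to −1.01) and an edgeR adjusted p = 4.3e-05, so it fell by 58.8%. No annotated gene overlaps Wt1, so its counts are not shared with a gene on either strand. Wt1os, a noncoding gene that runs away from the start of Wt1 on the opposite strand and was chosen after its values were seen, had 23, 19 and 11 counts alone and 9, 10 and 7 counts with Th17 cells. The log2 change of Wt1os was −1.08 ± 0.37 (SE; edgeR adjusted p = 0.046). This call of Wt1os held in 1 of the 6 fits that left out a library, without replicate 3 alone, and the largest adjusted p was 0.159, without replicate 1 alone.

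Markers of other cells that express Wt1 were read beside it. Of 10 podocyte markers, 6 were tested, 2 were lower and 0 higher past the threshold, and the median was −0.83. The defining podocyte gene Nphs1 (nephrin) had no count in any library. Synpo and Plce1, the 2 that were lower, are also expressed outside podocytes. Synpo, an actin-binding protein, had 219, 635 and 224 counts alone and 42, 107 and 54 counts with Th17 cells (log2 change −2.47, or −1.79 without the high replicate 2 alone). When libraries were left out in turn, Plce1, a phospholipase, passed the threshold only without replicate 2 or replicate 3 with Th17 cells, and without any 1 of the other 4 libraries the count for the list was 1. The summed level of the list was 346.1 to 375.7 CPM alone and 293.8 to 320.9 CPM with Th17 cells. Most of that sum was Nes (nestin), an intermediate filament found in many cell types, at 313.8 ± 6.83 CPM alone and 292.4 ± 13.4 CPM with Th17 cells (mean ± SD, n = 3 per group, edgeR adjusted p = 0.206).

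A list of 10 mesothelial markers was put together after the values of the factors and of the markers had been seen, so its direction was known when it was chosen. Of these, 4 were tested, 3 were lower past the threshold and 0 higher, and the median was −3.30. Their summed level was 37.1 to 40.7 CPM alone and 3.27 to 4.87 CPM with Th17 cells. Upk1b, a uroplakin of mesothelium and urothelium, had 97, 83 and 113 counts alone and 0 in each library with Th17 cells. Bnc1, a zinc finger protein of mesothelium and other epithelia, had 170, 160 and 138 counts alone and 13, 9 and 9 counts with Th17 cells (log2 change −3.97 ± 0.19 (SE), edgeR adjusted p = 5.38e-07). The keratin Krt19 had 198, 171 and 203 counts alone and 33, 39 and 25 counts with Th17 cells. Krt18, the tested marker that was not called, had 10, 20 and 14 counts alone and 12, 14 and 9 counts with Th17 cells (log2 change −0.40, edgeR adjusted p = 0.441). The low-count markers Upk3b, Lrrn4 and Krt7 had between 1 and 9 counts in each library alone and 0 in each with Th17 cells. Msln, the defining mesothelin gene, had 2 counts in replicate 2 alone and 0 elsewhere. Bnc1 shares exonic bases with a gene on the opposite strand, and Krt8, Krt18 and Krt19 also stand in the epithelial list. The part of mesothelial cells in the decrease of Wt1, Tcf21 and Osr1 was not tested.

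**Figure D2:**
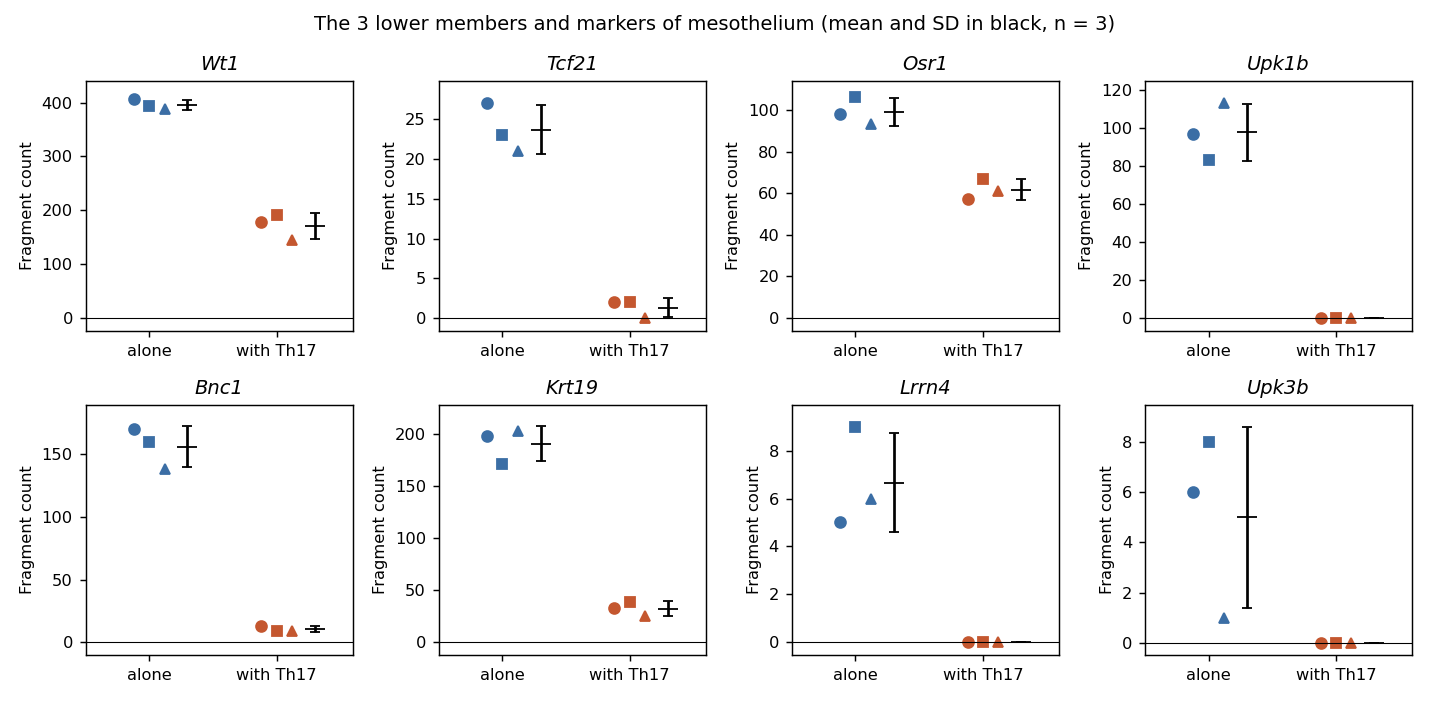
Fragment counts of the 3 factors that fell and of 5 mesothelial markers in each library (circles, squares and triangles are replicates 1, 2 and 3; black bars are the mean and SD, n = 3). Upk1b, Lrrn4 and Upk3b had 0 counts in each library with Th17 cells, while Wt1 kept between 145 and 191 counts and Osr1 between 57 and 67. The 5 markers drawn were picked from the list of 10 after their values were seen, and each had fewer counts with Th17 cells. Among those not drawn are Krt18, which was not called, and Msln, which had 2 counts in replicate 2 alone and 0 elsewhere.

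Osr1, a zinc finger factor of the earliest kidney mesenchyme, was lower by less than the fold limit. Osr1 (ENSMUSG00000048387, chromosome 12, 9574442 to 9581499, protein-coding) had 98, 106 and 93 counts alone and 57, 67 and 61 counts with Th17 cells. The groups did not overlap. Its level fell from 7.95 ± 0.391 to 4.71 ± 0.516 CPM (mean ± SD, n = 3 per group), with a fitted log2 change of −0.75 ± 0.15 (SE) and an edgeR adjusted p = 0.00412, so it fell by 40.7%. No annotated gene overlaps Osr1. Its deposited span starts at 9574442 and its annotated span at 9570116, so fragments from its first annotated bases may not have been counted.

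Tbx18, a T-box factor of ureteric and perivascular mesenchyme, was higher with Th17 cells. Tbx18 (ENSMUSG00000032419, chromosome 9, 87702800 to 87731260, protein-coding) had 409, 374 and 329 counts alone and 690, 547 and 540 counts with Th17 cells. The groups did not overlap, and replicate 1 was the highest library of each. Its level rose from 29.7 ± 1.97 to 45.1 ± 5.44 CPM (mean ± SD, n = 3 per group), with a fitted log2 change of 0.60 ± 0.10 (SE) and an edgeR adjusted p = 0.00182, an increase of 51.9%. D030062O11Rik, on the opposite strand, shares 970 exonic bases with Tbx18, and it is not known whether the counting used strand. That gene had only 22, 13 and 16 counts alone and 17, 23 and 22 with Th17 cells, far fewer than Tbx18.

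Meis1, a homeodomain factor of the kidney stroma, was higher by a similar amount. Meis1 (ENSMUSG00000020160, chromosome 11, 18879817 to 19018985, protein-coding) had 683, 728 and 701 counts alone and 1120, 1045 and 1087 counts with Th17 cells. The libraries with Th17 cells lay close together and above every library alone. Its level rose from 56.6 ± 3.23 to 82.7 ± 0.594 CPM (mean ± SD, n = 3 per group), with a fitted log2 change of 0.55 ± 0.07 (SE) and an edgeR adjusted p = 0.000291, an increase of 46.1%. Gm37818 lies within Meis1 on the same strand and shares 1029 exonic bases with it, so fragments there could be counted for either. Gm37818 had 15, 18 and 18 counts alone and 37, 36 and 36 with Th17 cells, a log2 change of 1.02 ± 0.24 (SE; edgeR adjusted p = 0.0085). Gm16140, on the opposite strand with 896 shared exonic bases, had between 0 and 9 counts in each library, and the other 3 genes annotated across Meis1 share no exonic bases with it.

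Six2, the homeodomain factor of nephron progenitors, was detected at a low level in both groups. Six2 (ENSMUSG00000024134, chromosome 17, 85684277 to 85688274, protein-coding) had 6, 16 and 12 counts alone and 16, 9 and 7 counts with Th17 cells. The groups overlapped over most of their range. The log2 fold change was −0.16 with a 95% interval of −1.23 to 0.90 (edgeR adjusted p = 0.818), so the values are compatible with no change and with any change inside that interval.

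Foxd1, the forkhead factor of stromal progenitors, and the paired-box factors Pax2 and Pax8 did not have enough counts to be tested. Foxd1 (ENSMUSG00000078302, chromosome 13, 98354242 to 98356703) had 0, 0 and 3 counts alone and 2, 0 and 2 counts with Th17 cells. Pax2 (ENSMUSG00000004231, chromosome 19, 44756045 to 44837871) had 3, 1 and 1 counts alone and 0 in each library with Th17 cells. Pax8 (ENSMUSG00000026976, chromosome 2, 24420560 to 24475599) had 1 count, in replicate 1 with Th17 cells. Both groups were therefore at or under the floor for all 3 genes, and no fold change is given. The deposited span of Foxd1 is shorter than its annotated span, which ends at 98359305, so fragments from its far end may not have been counted.

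**Figure D3:**
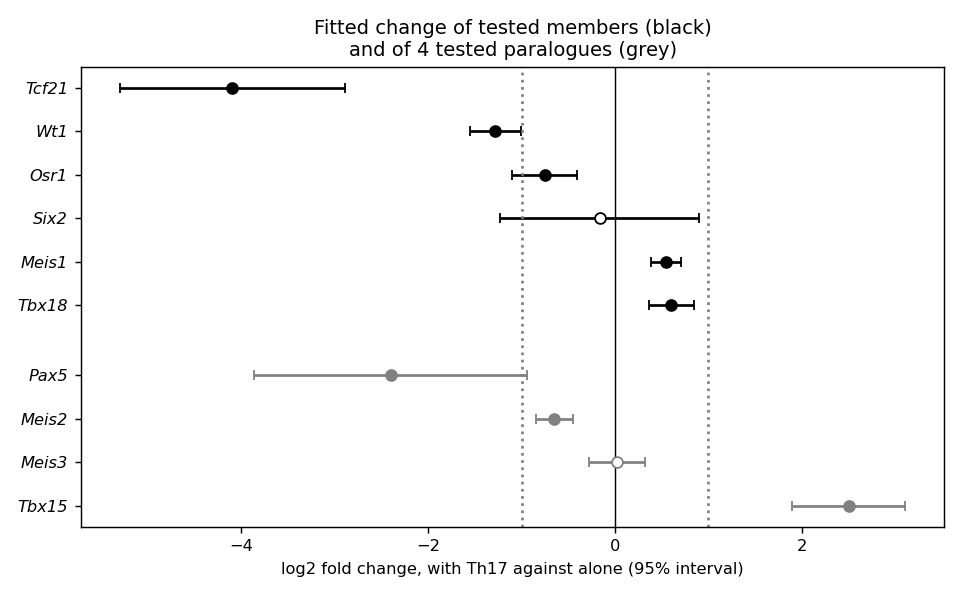
Log2 fold change with Th17 cells against alone on the horizontal axis, with 95% intervals, for the 6 tested factors in black and 4 tested paralogues in grey; filled points had an edgeR adjusted p below 0.05 and dotted lines mark a factor of 2. Tcf21 and Wt1 lie beyond the lower line with their whole intervals, while the intervals of Tbx18 and Meis1 lie between 0 and the upper line.

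Levels were compared between genes only as the deposited FPKM, the fragments of a gene scaled to its length and to the library total. In fibroblasts alone the order was Tbx18 at 6.06 ± 0.383, Osr1 at 3.87 ± 0.192, Wt1 at 3.08 ± 0.0967, Meis1 at 2.47 ± 0.148, Tcf21 at 1.52 ± 0.135 and Six2 at 0.228 ± 0.102 FPKM (SD, n = 3). Each of these neighbours had separate ranges over the 3 libraries, while Foxd1 at 0.0337 and Pax2 at 0.0163 FPKM overlapped. With Th17 cells the order became Tbx18 at 9.62 ± 1.15, Meis1 at 3.76 ± 0.0450, Osr1 at 2.40 ± 0.252, Wt1 at 1.32 ± 0.193, Six2 at 0.210 ± 0.0884 and Tcf21 at 0.0849 ± 0.0736 FPKM. Meis1 thus moved from below Osr1 and Wt1 to above them, and Tcf21 from above Six2 to below it. With Th17 cells the ranges were separate down to Six2 and Tcf21, whereas Tcf21 and Foxd1 could not be ordered. Six2 and Tcf21 were narrowly separate there, since Six2 reached down to 0.139 and Tcf21 up to 0.130 FPKM. Tcf21 then had 2, 2 and 0 counts, under the floor of 3. Tbx18 had a higher FPKM than 72.1% of detected genes alone and than 79.1% with Th17 cells, and Tcf21 than 49.6% and 24.5%.

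**Figure D4:**
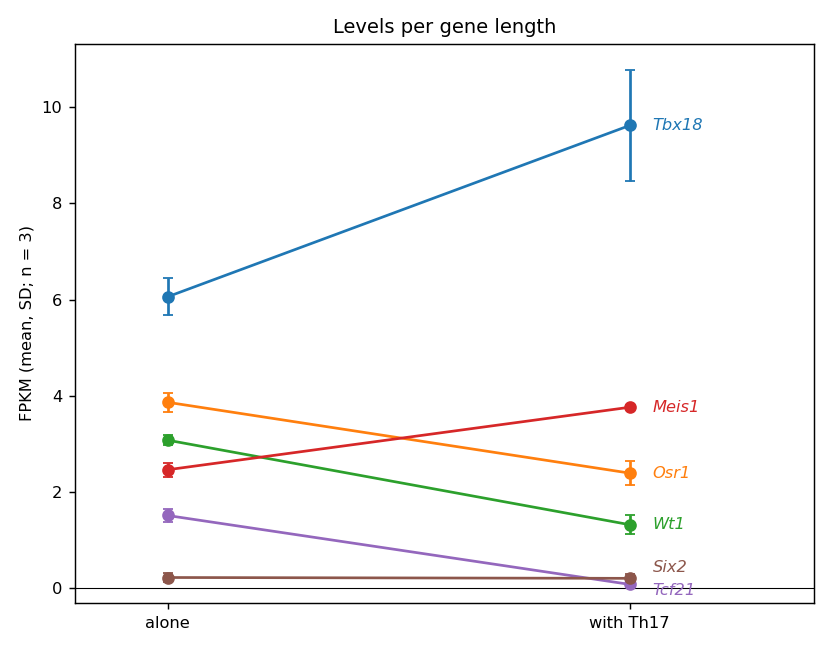
Deposited FPKM (vertical axis; mean and SD, n = 3) of the 6 tested factors in fibroblasts alone and with Th17 cells, each line joining the means of 1 gene. Tbx18 stayed the highest in both groups, the line of Meis1 crosses those of Wt1 and Osr1, and Tcf21 ends below Six2, at counts under the floor of 3.

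The 8 closest paralogues of the factors include Foxd2, Msc, Tbx15, Pax5, Osr2, Meis2 and Meis3. Of these, 5 were tested, 1 was higher and 1 lower past the threshold, and the median was 0.02. Tbx15, the T-box relative of Tbx18, had 13, 8 and 12 counts alone and 55, 72 and 71 counts with Th17 cells (log2 change 2.50 ± 0.27 (SE), edgeR adjusted p = 9.51e-05). Its FPKM of 1.34 ± 0.221 with Th17 cells was still below the 9.62 of Tbx18. Meis2 went the other way from Meis1, from 565, 655 and 578 counts to 418, 401 and 387 counts (log2 fold change −0.65, 95% interval −0.85 to −0.45, edgeR adjusted p = 0.000392). Meis1 and Meis2 had overlapping FPKM ranges alone, at 2.47 ± 0.148 and 2.57 ± 0.217, and stood at 3.76 ± 0.0450 and 1.71 ± 0.0507 FPKM with Th17 cells. Meis3 had a log2 fold change of 0.02 with a 95% interval of −0.28 to 0.32 (edgeR adjusted p = 0.917).

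Pax5, the paired-box relative of Pax2 and Pax8 known from B cells, was lower past the threshold, with 205, 34 and 57 counts alone and 26, 20 and 12 counts with Th17 cells (log2 change −2.40 ± 0.64 (SE), edgeR adjusted p = 0.0169). The count of replicate 1 alone stood far above the others, and without it the log2 fold change was −1.34. The adjusted p of Pax5 was 0.054 without replicate 2 and 0.058 without replicate 3 of the group with Th17 cells, so its call rests on these libraries, and genes on the opposite strand share exonic bases with it. Osr2 had 12, 8 and 7 counts alone and 2, 2 and 7 with Th17 cells, Foxd2 had between 1 and 10 counts in each library, and Msc, the relative of Tcf21, had 1 count in all. None of these 3 was tested.

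Transcripts of 17 partners, genes whose proteins work with these factors, were read beside them. Of these, 16 were tested, 2 were higher and 2 lower past the threshold, and the median was 0.03. With no fold limit 3 were higher and 4 lower, beside the 37.1% called in either direction among all genes tested. Dach1, a corepressor that works with Six2, rose from 1.20 ± 0.604 to 4.89 ± 0.697 CPM (mean ± SD, n = 3 per group), with a fitted log2 change of 2.01 and an edgeR adjusted p = 0.00098. The coactivators Eya1 and Eya2 were named after their values were seen. Eya1 had 0, 1 and 0 counts alone and 23, 12 and 15 counts with Th17 cells, which pooled and scaled to library size gave a ratio of 47.5 with a 95% counting interval of 8.15 to 1914. The single count alone came from replicate 2, without which Eya1 had 0 counts in that group. Eya2 had 23, 23 and 20 counts alone and 0, 0 and 1 counts with Th17 cells, a level 69.4 times as high alone with a 95% counting interval from 12.04 up to 2784, and its single count with Th17 cells came from replicate 3. Thus, of Eya1 and Eya2, each was detected above the floor only in the group where the other was not. Their relatives Eya3 and Eya4 were detected in both groups. Eya3 was the more abundant, at 31.4 ± 1.33 CPM alone and 47.2 ± 9.82 CPM with Th17 cells (log2 change 0.59, edgeR adjusted p = 0.0113). Eya4 stood at 3.13 ± 0.576 and 1.87 ± 0.995 CPM (edgeR adjusted p = 0.152). Among partners of Meis factors, Pknox2 fell from 7.11 ± 0.637 to 1.45 ± 0.269 CPM (log2 fold change −2.28, edgeR adjusted p = 3.07e-05). The E proteins Tcf3, Tcf4 and Tcf12, with which Tcf21 pairs, had log2 fold changes of −0.23, 0.23 and 0.00, and none passed the test.

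Of 24 further transcription factors of stroma and mesenchyme, all were tested, 2 were higher and 0 lower past the threshold, and the median was 0.04. With no fold limit, 8 were higher and 6 lower, beside 17.1% higher and 20.0% lower among all genes tested. Foxf2, a forkhead factor of mesenchyme, rose from 11.5 ± 2.01 to 33.6 ± 2.56 CPM (mean ± SD, n = 3 per group), with a fitted log2 change of 1.55 and an edgeR adjusted p = 2.73e-05. Tbx3, another T-box factor, rose from 34.6 ± 2.49 to 92.4 ± 5.23 CPM (log2 fold change 1.41, edgeR adjusted p = 1.76e-06). Both share exonic bases with a gene on the opposite strand.

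Of 28 further factors and signals of the nephron and ureteric bud, 13 were tested, 3 were higher and 2 lower past the threshold, and the median was 0.16. No count was found in any library for 6 of them, among them Hnf4a, a factor of tubule epithelium. Wnt4, the signal that starts nephron epithelium and is also made by stromal cells, had 150, 168 and 163 counts alone and 29, 27 and 17 counts with Th17 cells (log2 change −2.79 ± 0.20 (SE), edgeR adjusted p = 7.31e-06). The groups lay far apart. Irx3, a homeodomain factor of the forming tubule, rose from 7.19 ± 0.672 to 16.5 ± 3.39 CPM (log2 fold change 1.20, edgeR adjusted p = 0.000531). Gata3 and Gfra1, which were outside the naming rule and were named after their values were seen, completed the 5 past the threshold together with Eya1. The ureteric factor Gata3 had 10, 6 and 6 counts alone and 25, 28 and 27 counts with Th17 cells. Gfra1, the coreceptor for Gdnf, had 36, 49 and 31 counts alone and 18, 14 and 8 counts with Th17 cells. Irx3, Gata3 and Gfra1 share exonic bases with other annotated genes.

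The labelled cell type was checked against its markers. Fibroblast genes were abundant in every library. The collagen Col1a1 had 202700, 192458 and 168972 counts alone and fell to 87428, 83040 and 74446 counts with Th17 cells (log2 change −1.27 ± 0.07 (SE), edgeR adjusted p = 1.07e-06). Of 20 stromal cell markers, 17 were tested, 1 was higher and 7 lower past the threshold, and the median was −0.53. When no fold limit was set, 2 were higher and 12 lower, beside 17.1% higher and 20.0% lower among all genes tested. The proteoglycan Dcn rose from 504.5 ± 3.06 to 1427 ± 50.4 CPM, while the collagen Col3a1 fell from 4364 ± 18.6 to 961.0 ± 112 CPM (edgeR adjusted p = 8.73e-08 and 1.37e-07). The intermediate filament Des and the pericyte marker Mcam had log2 fold changes of −2.07 and −1.52 (edgeR adjusted p = 4.21e-08 and 6.23e-06). Ren1 and Akr1b7, the markers of renin cells, had no count in any library.

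Markers of epithelium, macrophages, endothelium and T cells were read in the same way. Of 16 epithelial markers, 6 were tested, 2 were lower (Krt19 and Lrp2) and 0 higher, the median was −0.24, and the summed level was 24.3 to 26.7 CPM alone and 10.3 to 12.4 CPM with Th17 cells. The defining tubule genes Slc34a1, Umod, Aqp2 and Havcr1 had no count, and Epcam had at most 4 counts in a library. Of 14 macrophage markers, 6 were tested, 4 were lower past the threshold and 0 higher, and the summed level was 59.2 to 62.6 CPM alone and 20.0 to 21.1 CPM with Th17 cells. The median of the tested macrophage markers was −2.42, or −1.92 with genes at or below 3 counts in each library with Th17 cells set to the floor, and the defining gene Adgre1 had 71, 47 and 55 counts alone and 0 in each library with Th17 cells. Of 10 endothelial markers, 3 were tested, 1 was lower (Kdr) and 0 higher, the median was 0.10, and Emcn, Tie1 and Erg had no count. Of 15 T cell markers, 3 were tested, 2 were lower (Lck and Ptprc) and 0 higher, and the median was −1.04. Ptprc also stands in the macrophage list and is counted as lower in both. It had 14, 12 and 11 counts alone and 0 in each library with Th17 cells. Lck stood at the fold limit, and the number of lower T cell markers was 1 without replicate 2 alone or without replicate 3 with Th17 cells. Cd3d, Cd8a, Cd2, Il17a, Il17f and Ccr6 had no count in any library, Cd3e had at most 6 counts, and Trac had between 20 and 41 counts in each library of both groups. The part of these other cells in the values of the lineage factors was not tested.

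The genes with the profile most like each factor past the threshold were found among all 13087 other genes tested, as the smallest root mean square distance between centred log2 CPM values over the 6 libraries. These values used a prior count of 2, which compresses the profile of a gene with as few counts as Tcf21. For Wt1 these were Col6a2 at 0.0362, Trim34b at 0.0502 and Ncam1 at 0.0641 log2 units. Col6a2, a chain of collagen VI, had 1551, 1599 and 1571 counts alone and 721, 794 and 580 counts with Th17 cells, so the library order within the latter group was that of Wt1. For Tcf21 the nearest genes were Tenm4 at 0.186, Adcyap1r1 at 0.197 and Nrep at 0.205 log2 units. Their fitted log2 fold changes were −2.98, −3.38 and −3.02, against −4.10 for Tcf21. Tenm4, a teneurin, had 216, 216 and 187 counts alone and 31, 30 and 21 counts with Th17 cells.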

How the data were processed

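Libraries were made from total RNA (VAHTS kit) for Illumina sequencing. Seqtk was used by the authors to filter reads, and the submitters' processing notes name mm10, HISAT2 2.0.4, StringTie 1.3.3b and edgeR. The deposited values used were raw fragment counts per gene and, beside each, an FPKM value made by the authors from gene length and library total. Use of strand and the treatment of multi-mapping fragments are not given in the sources used here. Of the identifiers, 34344 were found in the GENCODE M21 annotation of GRCm38, and 99.9% of these overlapped their annotated position.

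Samples were grouped by title, and columns were matched by description. The fit used edgeR 4.0.16 under R 4.3.3 (filterByExpr at a minimum count of 10, TMM factors, glmQLFit, glmQLFTest), and p-values were adjusted by the Benjamini-Hochberg method. The SE is the size of the log2 fold change divided by the square root of F. Counting intervals are exact and conditional on the pooled counts. Medians over lists are descriptions with no test.

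The members, lists and tests were chosen with earlier results of these data known. The mesothelial list, Wt1os, Eya1, Eya2, Eya3, Eya4, Gata3 and Gfra1 were chosen after their values were seen, as were the marker genes named beside the lists. The other genes named were the 9 factors, their 8 closest paralogues, genes overlapping a factor, and, in the partner, stromal factor, nephron and stromal cell lists, the 3 highest and 3 lowest past the threshold whose mean count reached 50 where they were higher. The E proteins were named for their role as partners of Tcf21. Some list genes are counted in their lists but are not reported here.

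Alternatives were relative log expression and upper quartile factors, library size only, 2 filters on low counts, DESeq2 1.42.0, limma 3.58.1 on log2(FPKM + 1), a replicate block, and leaving out each library. Counts for 13088 genes were also simulated for the cultures with Th17 cells against alone, with the same dispersion (spread between libraries) for every gene. Far fewer genes were changed than were called in the data. At an adjusted p below 0.05, the edgeR test recovered 91.5% of 118 genes planted at a log2 fold change of 1. It recovered 98.8% of 82 planted at 2, with 8 unchanged genes called. Recovery used no fold limit and no check of direction, so the threshold with its fold limit was not simulated.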

Additional observations from a re-analysis of the deposited data

How the results depend on the processing

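Under 14 alternatives, Tcf21 (13, since 1 filter removed it), Wt1, Osr1, Tbx18 and Meis1 kept their direction and an adjusted p below 0.05. Their log2 fold changes ranged from −4.49 to −1.21 for Tcf21, −1.39 to −0.81 for Wt1, −0.84 to −0.52 for Osr1, 0.50 to 0.67 for Tbx18 and 0.46 to 0.61 for Meis1, with largest adjusted p values of 0.00216, 0.000382, 0.0193, 0.00975 and 0.00206 (edgeR, DESeq2 or limma, Benjamini-Hochberg). For Tcf21, Wt1, Osr1 and Meis1 the value nearest 0 came from limma on log2(FPKM + 1), which understates changes of low genes, and for Tbx18 from leaving out replicate 1 with Th17 cells. With at least 10 counts required in every library, Tcf21 was not tested and 1 factor was lower past the threshold instead of 2. With limma that count was also 1, since Wt1 at −0.81 stood below the fold limit. Of the genes in the other lists (without mesothelium), 8 were higher and 22 lower past the threshold, against 5 and 14 with at least 10 counts and 3 and 9 with limma. Six2 ranged from −0.55 to 0.15 and turned to 0.15 without replicate 2 alone and to 0.06 without replicate 3 with Th17 cells, with adjusted p values between 0.458 and 0.935 over its alternatives.

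Same-numbered libraries did not deviate together (correlations 0.02, −0.03 and 0.00), and not every library correlated best with its own number. The values thus gave no sign of pairing by number. They cannot show whether same-numbered libraries shared an animal or a preparation, which the labels do not state. With the number as a replicate block, 0 factors were higher and 2 lower past the threshold, as without it. List medians near 0 changed sign under some alternatives, and ranged from −0.31 to 0.13 for paralogues, −0.12 to 0.09 for partners, −0.03 to 0.10 for stromal factors and −0.02 to 0.31 for nephron and ureteric factors. The epithelial and endothelial medians, over 6 and 3 tested genes, ranged from −0.99 to 0.52 and from −0.21 to 0.18. The other marker medians kept their sign and ranged from −0.95 to −0.18 for podocytes, −1.90 to −0.05 for T cells, −3.31 to −0.63 for macrophages, −3.84 to −1.73 for mesothelium and −0.59 to −0.46 for stromal cells. Depth limits Foxd1, Pax2, Pax8 and Six2, and the size of the Tcf21 decrease.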
